A study of Mus musculus with 31 samples.

Results

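The collagen genes of the mouse kidney were followed through 4 weeks of cisplatin or phosphate-buffered saline (PBS) in Nbl1 HET and WT males. Members were taken by name, as every gene whose symbol is Col, a number, the letter a and a number. This gave 44 of the 55487 genes in the count table, namely 11 fibrillar chains, 6 type IV chains of basement membranes and 27 chains of other types. Of the 44, 39 passed the filter on low counts and were tested among 19268 genes. The 5 that did not pass were Col2a1, Col9a1, Col9a2, Col10a1 and Col22a1, and the highest value of any of these in any kidney was 0.269 CPM (Col22a1). CPM are read counts scaled to a common library size, here after TMM, which adjusts each library total for differences in composition.

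Collagens are helical proteins of the extracellular matrix. Fibrillar collagens form the cables of the interstitium and of scars, type IV collagens form the sheet-like network of every basement membrane, and other types bind to fibrils, link cells to matrix or span the cell membrane. In the kidney the network built from the Col4a1 and Col4a2 chains surrounds tubules and vessels, whereas the chains of Col4a3, Col4a4 and Col4a5 make up the mature glomerular filter and are mutated in Alport syndrome.

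All mice were males on the B6 background that were dosed over 4 weeks from the age of 8 weeks, and kidneys were taken 3 days after treatment at a stated age of 11 weeks, ages that do not add up and that nothing in the labels settles. The groups were 8 HET and 8 WT mice given cisplatin, a platinum drug that injures kidney tubules, and 7 HET and 8 WT mice given PBS. The secreted product of Nbl1 binds bone morphogenetic proteins and blocks them. The sources used here give neither the kind of Nbl1 allele nor the cisplatin dose. Each library carries its own animal number and was treated as 1 animal.

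Library totals were 26868909 to 31914893 counts in HET cisplatin kidneys, 24650729 to 28862597 in WT cisplatin kidneys, 29231734 to 36695891 in HET PBS kidneys and 29845442 to 37301061 in WT PBS kidneys. Nbl1 ran from 0.861 to 13.9 CPM in HET cisplatin kidneys, against 10.7 to 26.2 CPM in WT cisplatin kidneys, and from 0.106 to 4.20 CPM in HET PBS kidneys, against 3.71 to 7.90 CPM in WT PBS kidneys. The libraries labelled HET cisplatin 3 and 4 and HET PBS 1 and 6 held 0.106 to 1.08 CPM of Nbl1, below the other libraries of their label. The library labelled WT PBS 6 held 3.71 CPM of Nbl1 and 0.756 CPM of Htr6, a neighbour of Nbl1 on the same strand, against at most 0.0352 CPM of Htr6 in the other WT PBS kidneys. These 5 libraries go against their labels. The library labelled HET cisplatin 4 also held adrenal cortex transcripts (Star, Cyp11a1 and Cyp11b1 summed to 413 CPM, against at most 2.63 CPM in any other kidney). HET cisplatin 6 and WT cisplatin 6 lay nearest to PBS kidneys on the first principal component, at 15.7 and 25.0, against 42.5 to 79.0 in the other cisplatin kidneys and −62.4 to −51.7 in PBS kidneys. In HET cisplatin 6 the 5 markers of injured tubule (Havcr1, Lcn2, Krt20, Vcam1 and Sox9) summed to 152 CPM, against 433 to 1010 CPM in the other HET cisplatin kidneys.

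Cisplatin changed the make-up of the kidney's collagen transcripts in both genotypes. Of the 39 tested collagens, 17 rose and 10 fell in HET kidneys, and 16 rose and 10 fell in WT kidneys (edgeR quasi-likelihood test, Benjamini-Hochberg adjusted over all genes, threshold 0.05). In either direction this was 69.2% of the collagens in HET, against 59% of all tested genes, and 66.7% in WT, against 63.2%. The share of collagens that rose was 43.6% in HET, where 31% of all tested genes rose, and 41.0% in WT, where 33.6% of all tested genes rose. The share that fell was 25.6% in each genotype, near the 28% and 29.6% of all tested genes that fell in HET and in WT. The median log2 fold change of the collagens was 0.26 in HET and 0.13 in WT kidneys, against 0.06 and 0.06 over all tested genes. In both genotypes 15 members rose: the type I, III and V chains Col1a1, Col1a2, Col3a1 and Col5a1, the type IV chains Col4a1, Col4a2, Col4a5 and Col4a6, and Col6a1, Col6a2, Col7a1, Col12a1, Col13a1, Col17a1 and Col18a1. Another 9 fell in both: Col4a3, Col4a4, Col5a2, Col6a4, Col6a6, Col14a1, Col19a1, Col23a1 and Col27a1. Col15a1 and Col6a3 rose in HET kidneys, Col8a1 fell in HET kidneys, Col11a2 rose in WT kidneys and Col5a3 fell in WT kidneys without passing the threshold in the other genotype, and 10 members passed it in neither. Scaling by library totals in place of TMM shifted the median of all genes upward by 0.40 in HET and 0.39 in WT on the log2 scale, and then 22 collagens rose and 7 fell in HET, and 20 rose and 8 fell in WT. On that scale the share of collagens that rose was 56.4% in HET and 51.3% in WT, below the 62.2% and 61.4% of all tested genes that rose, and the share that fell was 17.9% and 20.5%, above the 12.5% and 14.9% of all tested genes. Whether the collagens rose more or less often than other genes therefore turned with the scaling.

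**Figure D1:**
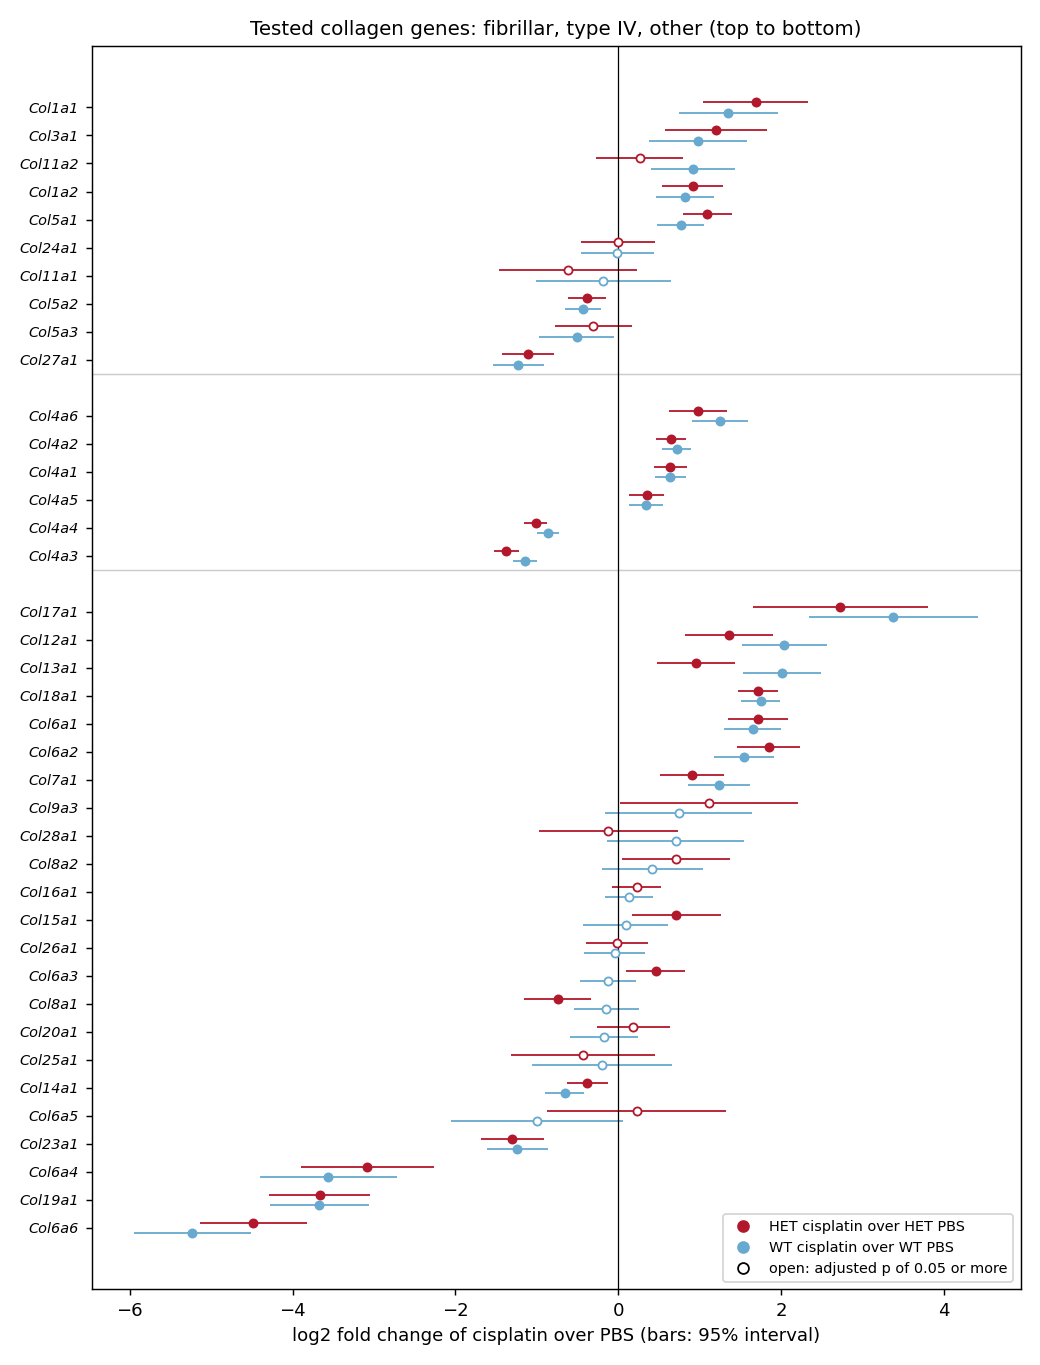
Log2 fold change of cisplatin over PBS for the 39 tested collagen genes, with 95% intervals, in HET (red) and WT (blue) kidneys; filled circles passed the adjusted threshold and open circles did not. From top to bottom the fibrillar, type IV and other members are each ordered by size, and in each block members lie on both sides of 0. By library totals every point moves right by about 0.40, which puts 6 points in HET (Col5a2, Col5a3, Col14a1, Col24a1, Col26a1 and Col28a1) and 7 in WT (Col6a3, Col8a1, Col11a1, Col20a1, Col24a1, Col25a1 and Col26a1) on the other side of 0.

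In most of the members that rose, a few kidneys set the edges of the groups. HET cisplatin 6 was the lowest of its group in 16 of the 17 collagens that rose in HET, and WT cisplatin 3 in 11 of the 16 that rose in WT. The highest kidney was HET cisplatin 2 in 9 of the 17 and WT cisplatin 4 in 10 of the 16. The cisplatin kidneys lay wholly above the PBS kidneys for 3 collagens in HET (background over all tested genes 11%) and for 13 in WT (background 14.4%), and wholly below for 7 in HET (background 14.9%) and 7 in WT (background 17.4%). Without HET cisplatin 6 the cisplatin kidneys lay wholly above the PBS kidneys for 12 collagens in HET (background 15.6%) and wholly below for 7 (background 18.3%), and 20 collagens rose and 10 fell, where 31.9% of all tested genes rose and 29% fell. In what follows, the 3 values of a group are its lowest, median and highest kidney, fold changes are log2 of cisplatin over PBS from the edgeR fit, and p-values are adjusted as above.

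The type I and type III chains, the main fibrils of interstitial scar, were higher after cisplatin in both genotypes. Col1a1, a chain of type I collagen, had 16.04, 112 and 201 CPM in HET cisplatin kidneys, against 21.7, 29.6 and 62.2 CPM in HET PBS kidneys. In WT it had 55.8, 94.9 and 131 CPM after cisplatin, against 23.9, 34.8 and 55.1 CPM after PBS. The WT groups did not overlap, and in HET every cisplatin kidney was above all PBS kidneys except HET cisplatin 6, which was below them all. The fold changes were 1.69 (SE 0.32, adjusted p = 2.94e-05) in HET and 1.35 (SE 0.30, adjusted p = 0.000216) in WT kidneys. Its partner chain Col1a2 had 46.5, 157 and 220 CPM in HET cisplatin kidneys, against 60.2, 81.3 and 108 CPM in HET PBS kidneys, and HET cisplatin 6 alone was not above the PBS kidneys. In WT the values were 111, 142 and 175 CPM after cisplatin, against 66.5, 82.4 and 97.04 CPM after PBS, with no overlap. Col1a2 rose by 0.91 (SE 0.18, adjusted p = 7.49e-05) in HET and 0.82 (SE 0.17, adjusted p = 0.000141) in WT kidneys. Col3a1, the type III chain of reticular fibres, had 12.97, 120 and 209 CPM in HET cisplatin kidneys, against 34, 49.99 and 83.3 CPM in HET PBS kidneys. WT kidneys held 49.8, 104 and 134 CPM after cisplatin, against 37.1, 48.2 and 70.3 CPM after PBS. In HET the lowest cisplatin kidney, HET cisplatin 6, was below every PBS kidney, and 1 further kidney overlapped, whereas in WT only the lowest cisplatin kidney overlapped. Col3a1 rose by 1.20 (SE 0.31, adjusted p = 0.00129) in HET and 0.98 (SE 0.29, adjusted p = 0.00464) in WT kidneys. Without HET cisplatin 6 the HET fold changes were 1.86 for Col1a1 and 1.37 for Col3a1.

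The minor fibrillar chains did not move together. Col5a1, a type V chain that seeds fibril assembly, had 16.4, 38.5 and 45.9 CPM in HET cisplatin kidneys, against 13.6, 15.8 and 24.2 CPM in HET PBS kidneys, and in HET only HET cisplatin 6 was within the PBS range. WT values were 27.6, 31.9 and 39.5 CPM after cisplatin, against 16.3, 18.8 and 24.04 CPM after PBS, with no overlap. The fold changes were 1.09 (SE 0.15, adjusted p = 2.06e-07) in HET and 0.76 (SE 0.14, adjusted p = 2.34e-05) in WT kidneys. Col5a2, which joins Col5a1 in type V fibrils and lies beside Col3a1 on chromosome 1, went the other way. It had 19.3, 24.8 and 27.98 CPM in HET cisplatin kidneys, against 25.7, 30.04 and 39.1 CPM in HET PBS kidneys, and in WT 16.6, 25.5 and 30.3 CPM after cisplatin, against 23.8, 33.04 and 41.7 CPM after PBS. The groups overlapped in both genotypes. Col5a2 fell, with fold changes of −0.39 (SE 0.11, adjusted p = 0.00413) in HET and −0.43 (SE 0.11, adjusted p = 0.000977) in WT kidneys, but the values were 0.02 in HET and −0.03 in WT, neither past the threshold, when libraries were scaled by their totals. Col27a1, a fibrillar chain known from cartilage, had 39.1, 59.7 and 93.5 CPM in HET cisplatin kidneys, against 125, 139 and 149 CPM in HET PBS kidneys. In WT kidneys it had 44.3, 59.1 and 81.2 CPM after cisplatin, against 91.4, 137 and 189 CPM after PBS. Every cisplatin kidney was below all PBS kidneys of its genotype, and the fold changes were −1.11 (SE 0.16, adjusted p = 3.95e-07) in HET and −1.23 (SE 0.15, adjusted p = 3e-08) in WT kidneys.

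Of the rarer fibrillar chains, Col11a2, a cartilage chain, had 0.466, 0.780 and 1.41 CPM in HET cisplatin kidneys, against 0.382, 0.665 and 1.24 CPM in HET PBS kidneys, and in WT 0.791, 1.07 and 1.57 CPM after cisplatin, against 0.211, 0.638 and 0.881 CPM after PBS. The groups overlapped in both genotypes. Its fold change was 0.26 (SE 0.26, adjusted p = 0.396) in HET and 0.91 (SE 0.25, adjusted p = 0.002) in WT, and by library totals it also passed the threshold in HET (0.66, adjusted p = 0.0204). The difference between the responses was −0.65 (95% interval −1.39 to 0.08, adjusted p = 0.933). Col5a3, the third type V chain, had 1.55, 1.96 and 6.05 CPM in HET cisplatin kidneys, against 2.06, 2.91 and 4.66 CPM in HET PBS kidneys. WT kidneys held 1.76, 2.19 and 3.01 CPM after cisplatin, against 2.51, 3.42 and 3.93 CPM after PBS. The value of 6.05 CPM was that of the library labelled HET cisplatin 4, the one with adrenal transcripts, and the other 7 HET cisplatin kidneys held 1.55 to 3.02 CPM. Col5a3 had fold changes of −0.31 (SE 0.23, adjusted p = 0.257) in HET and −0.51 (SE 0.22, adjusted p = 0.0472) in WT kidneys. The HET value was −0.63 (adjusted p = 0.00322) without that library, and the difference between the responses was 0.20 (95% interval −0.45 to 0.86, adjusted p = 0.964). The WT call was lost without any 1 of WT cisplatin 1 to 5 or 8, WT PBS 1 to 3, 7 or 8, HET cisplatin 3 or HET PBS 1 or 3 (adjusted p up to 0.0853), and by library totals the HET fold change turned to 0.09 and the WT one was −0.12. Col11a1 and Col24a1 stayed at or below 1.71 CPM and passed the threshold in neither genotype.

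**Figure D2:**
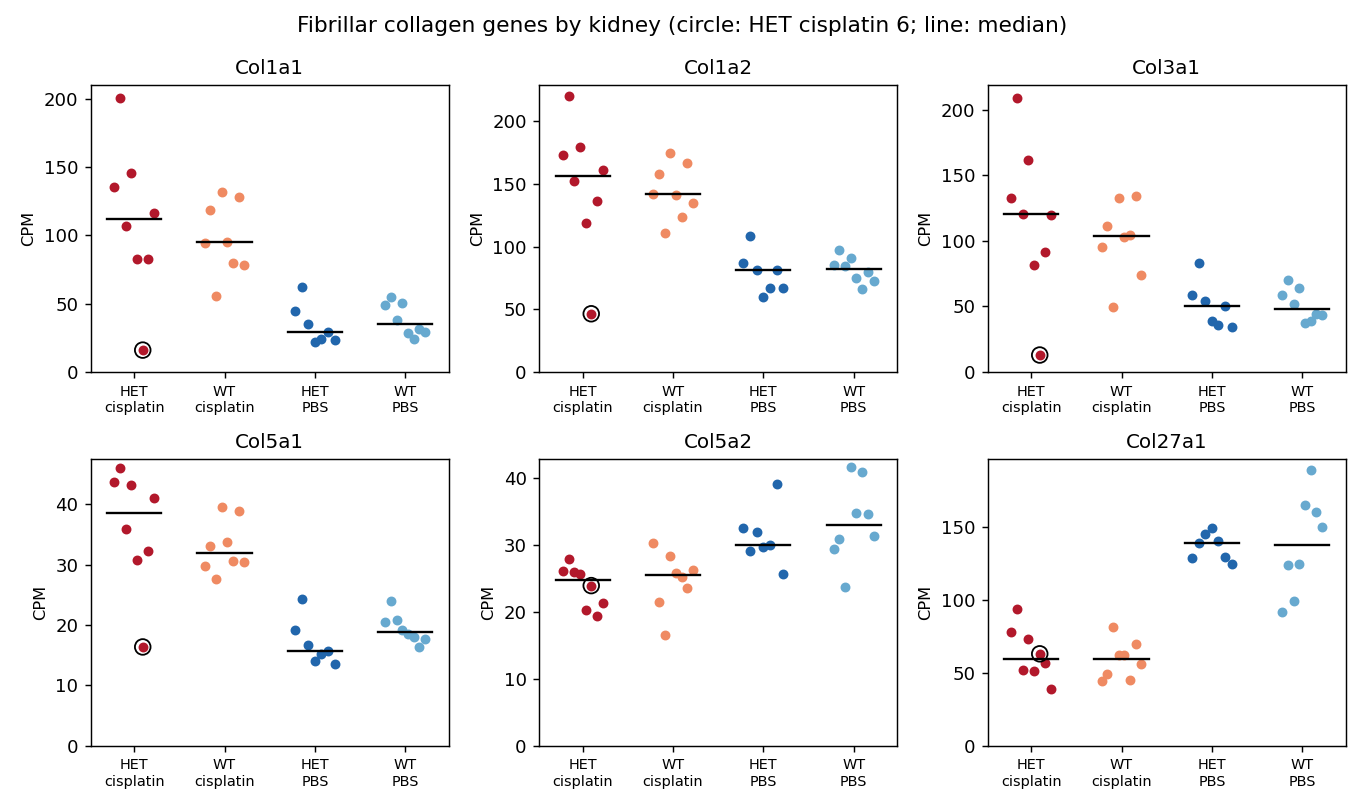
CPM of 6 fibrillar collagen genes in each kidney, with the group median as a line and HET cisplatin 6 circled. Col1a1, Col1a2, Col3a1 and Col5a1 are higher in most cisplatin kidneys, with the circled one within or below the PBS range. Col27a1 is lower in every cisplatin kidney than in all PBS kidneys of its genotype. Col5a2 is lower with overlap, a direction that is not kept in HET when libraries are scaled by their totals.

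The 6 type IV genes split into pairs that moved in opposite directions. All 6 passed the threshold in both genotypes, with Col4a1, Col4a2, Col4a5 and Col4a6 higher and Col4a3 and Col4a4 lower after cisplatin, and each kept its direction and its call when libraries were scaled by their totals. In the genome they form head-to-head pairs (GENCODE M21, GRCm38). The start of Col4a1 (ENSMUSG00000031502, chr8:11198423-11312826, minus strand) lies inside the first exon of Col4a2 (ENSMUSG00000031503, chr8:11312805-11449287, plus strand), so that their first exons share 22 bases on opposite strands. Col4a4 (ENSMUSG00000067158, chr1:82448423-82586849, minus strand) and Col4a3 (ENSMUSG00000079465, chr1:82586921-82722059, plus strand) start 72 bases apart, and Col4a6 (ENSMUSG00000031273, chrX:141165403-141474076, minus strand) and Col4a5 (ENSMUSG00000031274, chrX:141475385-141689234, plus strand) start 1309 bases apart. Both genes of a pair went in the same direction in each genotype. The counts of Col4a3 carry a limit: 5.65% of its exon bases also lie in C430014B12Rik on the opposite strand, and no source used here states whether reads were counted by strand.

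The RefSeq promoter windows (250 bases before to 50 bases after the start, GRCm38.p6) are shown for the pairs whose starts lie closest together, Col4a1 and Col4a2, one of the pairs that rose, and Col4a4 of the pair that fell. They lie at chr8:11312777-11313076, minus strand, at chr8:11312555-11312854, plus strand, and at chr1:82586800-82587099, minus strand. Each is written 5′ to 3′ on the strand of its gene, with capitals for the GC box (GGGCGG) and the CCAAT box (CCAAT) on either strand.
Col4a1: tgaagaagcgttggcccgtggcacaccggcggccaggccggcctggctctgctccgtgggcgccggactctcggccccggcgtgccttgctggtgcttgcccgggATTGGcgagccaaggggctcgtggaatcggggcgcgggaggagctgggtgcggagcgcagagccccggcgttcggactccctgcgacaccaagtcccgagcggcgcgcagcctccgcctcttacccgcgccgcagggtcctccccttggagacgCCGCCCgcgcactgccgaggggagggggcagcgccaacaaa
Col4a2: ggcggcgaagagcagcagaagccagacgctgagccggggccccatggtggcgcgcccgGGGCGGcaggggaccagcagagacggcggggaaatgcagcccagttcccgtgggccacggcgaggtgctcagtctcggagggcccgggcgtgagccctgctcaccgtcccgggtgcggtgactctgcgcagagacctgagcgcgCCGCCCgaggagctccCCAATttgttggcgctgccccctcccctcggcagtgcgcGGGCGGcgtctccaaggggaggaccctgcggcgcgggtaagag
Col4a4: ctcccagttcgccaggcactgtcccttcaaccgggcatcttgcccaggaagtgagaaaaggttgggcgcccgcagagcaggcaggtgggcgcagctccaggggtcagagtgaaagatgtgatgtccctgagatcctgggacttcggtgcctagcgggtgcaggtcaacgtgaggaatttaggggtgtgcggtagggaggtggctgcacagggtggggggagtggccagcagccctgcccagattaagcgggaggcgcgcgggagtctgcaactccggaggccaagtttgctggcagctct
The windows of Col4a1 and Col4a2 overlap by 78 bases and read the same region from opposite strands. Col4a1 holds 1 GC box and 1 CCAAT box, Col4a2 holds 3 GC boxes and 1 CCAAT box, and the window of Col4a4 holds neither, nor an AP-1 motif (TGANTCA) or a TATA box (TATAAA). G and C made up 74.0% of the Col4a1 window, 73.7% of the Col4a2 window and 63.3% of the Col4a4 window, against a median of 52.7% over all promoter windows. The windows of Col4a5 and Col4a6, the other pair that rose, do not overlap; they hold 52.7% and 48.3% G and C and 1 GC box each, with 1 CCAAT box in that of Col4a5 and none in that of Col4a6. A GC box occurs in 35.9% of the 27025 RefSeq promoter windows of this length and in 22 of the 35 collagen windows in the table (62.9%), and a CCAAT box in 37.9% of all windows and 12 of the 35 (34.3%). A match describes the letters only, and no match says only that the letters are not in this window. Col1a1, Col2a1, Col4a3, Col5a2, Col9a3, Col12a1, Col14a1, Col22a1 and Col26a1 had no window in the table.

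Col4a1, a chain of the general basement membrane network, had 391, 673 and 729 CPM in HET cisplatin kidneys, against 359, 400 and 439 CPM in HET PBS kidneys. In WT kidneys it had 560, 600.9 and 816 CPM after cisplatin, against 341, 400 and 481 CPM after PBS. Only HET cisplatin 6 was within the PBS range of its genotype, and the WT groups did not overlap. Col4a1 rose by 0.64 (SE 0.098, adjusted p = 1.44e-06) in HET and 0.64 (SE 0.094, adjusted p = 5.75e-07) in WT kidneys. Col4a2, its partner in the network, had 299, 423 and 462 CPM in HET cisplatin kidneys, against 240, 269 and 278 CPM in HET PBS kidneys. WT values were 348, 425 and 602.3 CPM after cisplatin, against 232, 270 and 313 CPM after PBS. Every cisplatin kidney was above all PBS kidneys of its genotype. Col4a2 rose by 0.65 (SE 0.09, adjusted p = 3.22e-07) in HET and 0.72 (SE 0.087, adjusted p = 1.71e-08) in WT kidneys. The TPM of Col4a1 to that of Col4a2 (TPM is the deposited abundance scaled by transcript length) had a median ratio of 1.80 in HET cisplatin, 1.57 in WT cisplatin, 1.75 in HET PBS and 1.69 in WT PBS kidneys, and the 4 ranges overlapped.

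Col4a3, a chain of the glomerular network, had 147, 206 and 234 CPM in HET cisplatin kidneys, against 445, 541 and 580 CPM in HET PBS kidneys. WT kidneys held 196, 219 and 249 CPM after cisplatin, against 443, 490 and 532 CPM after PBS. The highest cisplatin kidney was far below the lowest PBS kidney in both genotypes. Col4a3 fell, with log2 fold changes of −1.38 (SE 0.076, adjusted p = 8.26e-16) in HET and −1.15 (SE 0.074, adjusted p = 2.17e-14) in WT kidneys, or 0.385 and 0.451 of the PBS level. Its partner Col4a4 had 185, 219 and 277 CPM in HET cisplatin kidneys, against 421, 456 and 522 CPM in HET PBS kidneys, and in WT 229, 247 and 276 CPM after cisplatin, against 411, 461 and 480 CPM after PBS. Again the groups did not overlap. Col4a4 fell, with fold changes of −1.02 (SE 0.069, adjusted p = 1.11e-13) in HET and −0.86 (SE 0.067, adjusted p = 1.75e-12) in WT kidneys. The median TPM ratio of Col4a3 to Col4a4 was 0.991 in HET cisplatin and 0.960 in WT cisplatin kidneys, against 1.26 in HET PBS and 1.20 in WT PBS kidneys, with no overlap between cisplatin and PBS within a genotype. The median TPM ratio of Col4a3 to Col4a1 was 0.208 in HET cisplatin and 0.222 in WT cisplatin kidneys, against 0.874 in HET PBS and 0.801 in WT PBS kidneys.

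Col4a5 assembles with the Col4a3 and Col4a4 chains but did not follow them. It had 59.9, 98.4 and 125 CPM in HET cisplatin kidneys, against 67.4, 74.3 and 86.98 CPM in HET PBS kidneys, and in WT 76.3, 102 and 115 CPM after cisplatin, against 70.5, 76.4 and 83.6 CPM after PBS. Cisplatin and PBS kidneys overlapped in both genotypes, and the fold changes were 0.35 (SE 0.11, adjusted p = 0.00563) in HET and 0.34 (SE 0.10, adjusted p = 0.00521) in WT kidneys. The HET value was 0.27 (adjusted p = 0.0805) without the 5 libraries that go against their labels. Col4a6, which pairs with Col4a5 in the membranes of the Bowman capsule and of smooth muscle, had 4.996, 9.81 and 15.6 CPM in HET cisplatin kidneys, against 4.04, 4.53 and 6.42 CPM in HET PBS kidneys, with HET cisplatin 6 alone within the PBS range. WT kidneys had 7.05, 13.4 and 15.04 CPM after cisplatin, against 4.26, 5.16 and 5.69 CPM after PBS, with no overlap. The fold changes were 0.98 (SE 0.18, adjusted p = 1.6e-05) in HET and 1.25 (SE 0.17, adjusted p = 1.2e-07) in WT kidneys. Summed over the 6 type IV genes, counts were 1580 ± 150 CPM in HET cisplatin kidneys (SD, n = 8), against 1730 ± 92.5 CPM in HET PBS kidneys (n = 7), and 1630 ± 185 CPM in WT cisplatin kidneys (n = 8), against 1680 ± 111 CPM in WT PBS kidneys (n = 8). This ratio of cisplatin to PBS was 0.911 in HET and 0.971 in WT, and it lay on the other side of 1, at 1.21 and 1.28, when libraries were scaled by their totals.

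**Figure D3:**
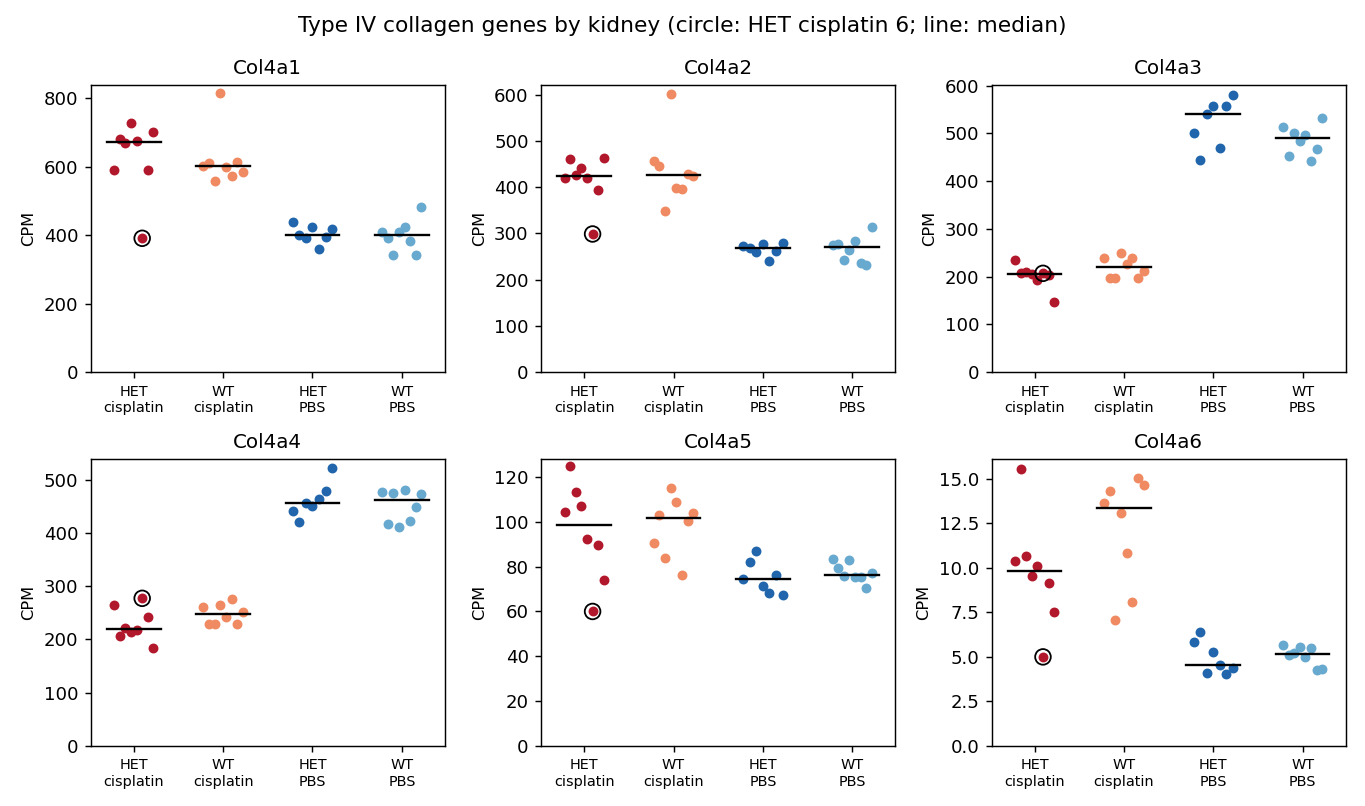
CPM of the 6 type IV collagen genes in each kidney, with the group median as a line and HET cisplatin 6 circled. Col4a1, Col4a2, Col4a5 and Col4a6 are higher and Col4a3 and Col4a4 lower after cisplatin in both genotypes, and the circled kidney lies within the PBS range for Col4a1 and Col4a6, below it for Col4a5, and with the other cisplatin kidneys for Col4a3 and Col4a4.

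The type VI chains build the beaded filaments that tie cells and basement membranes to the interstitium. Col6a1 had 25.04, 82.1 and 99.1 CPM in HET cisplatin kidneys, against 18.7, 21.5 and 30.4 CPM in HET PBS kidneys. In WT it had 55.8, 72.9 and 88.7 CPM after cisplatin, against 17.1, 23.02 and 28.3 CPM after PBS. Col6a2, next to Col6a1 on chromosome 10, had 16.4, 55.97 and 73.1 CPM in HET cisplatin kidneys, against 11.2, 13.4 and 18.6 CPM in HET PBS kidneys, and in WT 32.2, 42.2 and 57.9 CPM after cisplatin, against 13.1, 14.99 and 18.1 CPM after PBS. For both genes the WT groups did not overlap, and HET cisplatin 6 was the only HET cisplatin kidney within the PBS range. Col6a1 rose by 1.72 (SE 0.18, adjusted p = 1.52e-09) in HET and 1.65 (SE 0.17, adjusted p = 9.89e-10) in WT kidneys. Col6a2 rose by 1.85 (SE 0.19, adjusted p = 9.69e-10) in HET and 1.54 (SE 0.18, adjusted p = 9.16e-09) in WT kidneys.

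Col6a3, the chain that completes the classical type VI trimer, had 29.5, 65.3 and 84.7 CPM in HET cisplatin kidneys, against 38.01, 42.9 and 55.5 CPM in HET PBS kidneys, and in WT 29.1, 41.8 and 74.98 CPM after cisplatin, against 37.7, 49.8 and 54.6 CPM after PBS. All groups overlapped. The fold change was 0.46 (SE 0.18, adjusted p = 0.026) in HET and −0.13 (SE 0.17, adjusted p = 0.526) in WT, where scaling by library totals turned it to 0.26, and the difference between the responses was 0.59 (95% interval 0.09 to 1.09, adjusted p = 0.825). The HET call was lost without HET cisplatin 1 (0.42, adjusted p = 0.0514), HET cisplatin 2 (0.38, adjusted p = 0.0676), the library labelled HET cisplatin 4 (0.38, adjusted p = 0.0662) or HET PBS 4 (0.42, adjusted p = 0.0528). Without the 5 libraries that go against their labels it was 0.40 (adjusted p = 0.123). Col6a4 and Col6a6, chains that can take the place of Col6a3, were low in PBS kidneys and nearly absent after cisplatin. Col6a6 had 0.0622, 0.150 and 0.406 CPM in HET cisplatin kidneys, against 3.19, 4.47 and 6.90 CPM in HET PBS kidneys. WT kidneys held 0, 0.107 and 0.313 CPM after cisplatin, against 2.86, 4.22 and 6.36 CPM after PBS. Every cisplatin kidney was below every PBS kidney. Its fold changes of −4.48 (SE 0.32, adjusted p = 3.43e-13) in HET and −5.23 (SE 0.35, adjusted p = 5.47e-14) in WT kidneys were the most negative of all members. Col6a4 stayed at or below 0.222 CPM in HET cisplatin and 0.158 CPM in WT cisplatin kidneys, against 0.497 to 0.971 CPM in HET PBS and 0.633 to 1.66 CPM in WT PBS kidneys. It fell, with fold changes of −3.08 (SE 0.40, adjusted p = 6.33e-08) in HET and −3.56 (SE 0.41, adjusted p = 4.99e-09) in WT kidneys. The annotation places Col6a4, Col6a5 and Col6a6 side by side on chromosome 9, and Col6a5 passed the threshold in neither genotype.

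The multiplexins Col18a1 and Col15a1 are basement membrane proteoglycans, and a fragment of Col18a1 is endostatin, an inhibitor of vessel growth. Col18a1 had 272, 596 and 708 CPM in HET cisplatin kidneys, against 169, 172 and 189 CPM in HET PBS kidneys. WT kidneys had 462, 596 and 664 CPM after cisplatin, against 160, 169 and 182 CPM after PBS. All cisplatin kidneys, HET cisplatin 6 at 272 CPM included, were above all PBS kidneys. It rose by 1.71 (SE 0.12, adjusted p = 3.53e-13) in HET and 1.75 (SE 0.12, adjusted p = 5.78e-14) in WT kidneys, or 3.28-fold and 3.37-fold. Col15a1 had 10.02, 60.2 and 90.8 CPM in HET cisplatin kidneys, against 25.5, 33.7 and 48.9 CPM in HET PBS kidneys, and in WT 23.97, 37.9 and 62.2 CPM after cisplatin, against 27.7, 39.5 and 49.3 CPM after PBS. The groups overlapped in both genotypes, and the lowest value was that of HET cisplatin 6. The fold change was 0.71 (SE 0.27, adjusted p = 0.0229) in HET and 0.09 (SE 0.26, adjusted p = 0.78) in WT, and the difference between the responses was 0.62 (95% interval −0.13 to 1.38, adjusted p = 0.939). The HET call was lost without HET cisplatin 2 (0.60, adjusted p = 0.0577) or the library labelled HET cisplatin 4 (0.58, adjusted p = 0.0640), and without the 5 libraries that go against their labels (0.54, adjusted p = 0.162). Fitted on the HET groups alone it was 0.72 (adjusted p = 0.0629).

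Fibril-associated collagens coat the surface of fibrils. Col12a1 had 25.7, 44.8 and 86.1 CPM in HET cisplatin kidneys, against 16.4, 18.2 and 24.6 CPM in HET PBS kidneys. In WT it had 31.5, 66.4 and 161 CPM after cisplatin, against 16.1, 18.7 and 25.1 CPM after PBS. Every cisplatin kidney was above all PBS kidneys of its genotype, and within WT cisplatin the values spread over a wide range. Col12a1 rose by 1.35 (SE 0.27, adjusted p = 5.62e-05) in HET and 2.04 (SE 0.26, adjusted p = 3.92e-08) in WT kidneys. Col14a1, a relative of Col12a1, went the other way, with 37.7, 60.8 and 75.6 CPM in HET cisplatin kidneys, against 71.3, 79.3 and 85.6 CPM in HET PBS kidneys and, in WT, 38.6, 51.8 and 75.7 CPM after cisplatin, against 64.1, 82.3 and 94.6 CPM after PBS. The groups overlapped in both genotypes. The fold changes were −0.38 (SE 0.12, adjusted p = 0.00792) in HET and −0.66 (SE 0.12, adjusted p = 1.41e-05) in WT kidneys, and library totals turned the direction in HET, to 0.03, and gave −0.27 (adjusted p = 0.045) in WT. On log2(TPM + 1) the WT call was lost, at −0.22 (adjusted p = 0.0932). Col19a1, found in basement membrane zones, had 0.194, 0.356 and 0.833 CPM in HET cisplatin kidneys, against 4.21, 5.10 and 6.24 CPM in HET PBS kidneys. WT kidneys held 0.0320, 0.464 and 0.660 CPM after cisplatin, against 2.60, 5.77 and 9.49 CPM after PBS. All cisplatin kidneys were below all PBS kidneys, and Col19a1 fell, with fold changes of −3.67 (SE 0.31, adjusted p = 9.72e-12) in HET and −3.67 (SE 0.30, adjusted p = 4.54e-12) in WT kidneys. Col16a1, Col20a1 and Col9a3 passed the threshold in neither genotype. By library totals Col16a1 rose in HET (0.64, adjusted p = 0.000559) and in WT (0.52, adjusted p = 0.00247). On that scale Col9a3 also rose in HET (1.52, adjusted p = 0.0098) and in WT (1.14, adjusted p = 0.0198). Col20a1 then rose in HET only (0.60, adjusted p = 0.0179).

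Col17a1, Col13a1 and Col23a1 span the cell membrane, and Col7a1 builds the anchoring fibrils beneath epithelia. Col17a1, the hemidesmosome collagen that fixes epithelial cells to their basement membrane, had 0, 1.10 and 2.39 CPM in HET cisplatin kidneys, against 0.0317, 0.135 and 0.347 CPM in HET PBS kidneys. WT kidneys had 0.660, 1.17 and 2.76 CPM after cisplatin, against 0.0629, 0.137 and 0.246 CPM after PBS. HET cisplatin 6 had no read of Col17a1, and every other cisplatin kidney was above all PBS kidneys. It rose by 2.73 (SE 0.53, adjusted p = 4.28e-05) in HET and 3.38 (SE 0.51, adjusted p = 7.72e-07) in WT kidneys, at levels near 1 CPM. Col13a1, a collagen of cell adhesion sites, had 2.75, 5.003 and 5.89 CPM in HET cisplatin kidneys, against 1.60, 2.13 and 3.78 CPM in HET PBS kidneys, with overlap. In WT it had 2.37, 5.38 and 10.2 CPM after cisplatin, against 0.944, 1.23 and 2.30 CPM after PBS, without overlap. Col13a1 rose by 0.95 (SE 0.24, adjusted p = 0.000887) in HET and 2.01 (SE 0.24, adjusted p = 9.1e-09) in WT kidneys. Within animals of the 600 number range the HET fold change of Col13a1 was 0.70 (adjusted p = 0.0555).

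Col23a1 had 0.746, 1.56 and 2 CPM in HET cisplatin kidneys, against 2.87, 3.83 and 4.44 CPM in HET PBS kidneys. WT kidneys held 0.692, 1.44 and 2.31 CPM after cisplatin, against 2.61, 3.22 and 4.43 CPM after PBS. The groups did not overlap, and Col23a1 fell, with fold changes of −1.30 (SE 0.19, adjusted p = 4.93e-07) in HET and −1.24 (SE 0.18, adjusted p = 6.87e-07) in WT kidneys. Col7a1 had 2.82, 6.40 and 10.9 CPM in HET cisplatin kidneys, against 2.57, 3.37 and 4.64 CPM in HET PBS kidneys, with HET cisplatin 6 within the PBS range. WT kidneys had 4.72, 8.32 and 10.7 CPM after cisplatin, against 2.32, 3.23 and 4.29 CPM after PBS, without overlap. It rose by 0.90 (SE 0.19, adjusted p = 0.000172) in HET and 1.24 (SE 0.19, adjusted p = 8.27e-07) in WT kidneys. Col8a1, a short-chain collagen of vessel walls and of the cornea, had 8.97, 13.4 and 18.3 CPM in HET cisplatin kidneys, against 14.2, 22.8 and 28.2 CPM in HET PBS kidneys, and in WT 11.9, 14.95 and 18.3 CPM after cisplatin, against 9.65, 15.7 and 30.1 CPM after PBS. The groups overlapped in both genotypes. Its fold change was −0.74 (SE 0.20, adjusted p = 0.00211) in HET and −0.15 (SE 0.20, adjusted p = 0.531) in WT, and the difference between the responses was −0.60 (95% interval −1.17 to −0.02, adjusted p = 0.882). By library totals the HET call was lost (−0.32, adjusted p = 0.15) and the WT value turned to 0.26, whereas within animals of the 600 number range the WT value was −0.56 (adjusted p = 0.0108), past the threshold. Col8a2, Col25a1, Col26a1 and Col28a1 passed the threshold in neither genotype. By library totals Col8a2 rose in HET (1.12, adjusted p = 0.00385) and in WT (0.80, adjusted p = 0.0227), and Col28a1 in WT only (1.10, adjusted p = 0.0165).

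**Figure D4:**
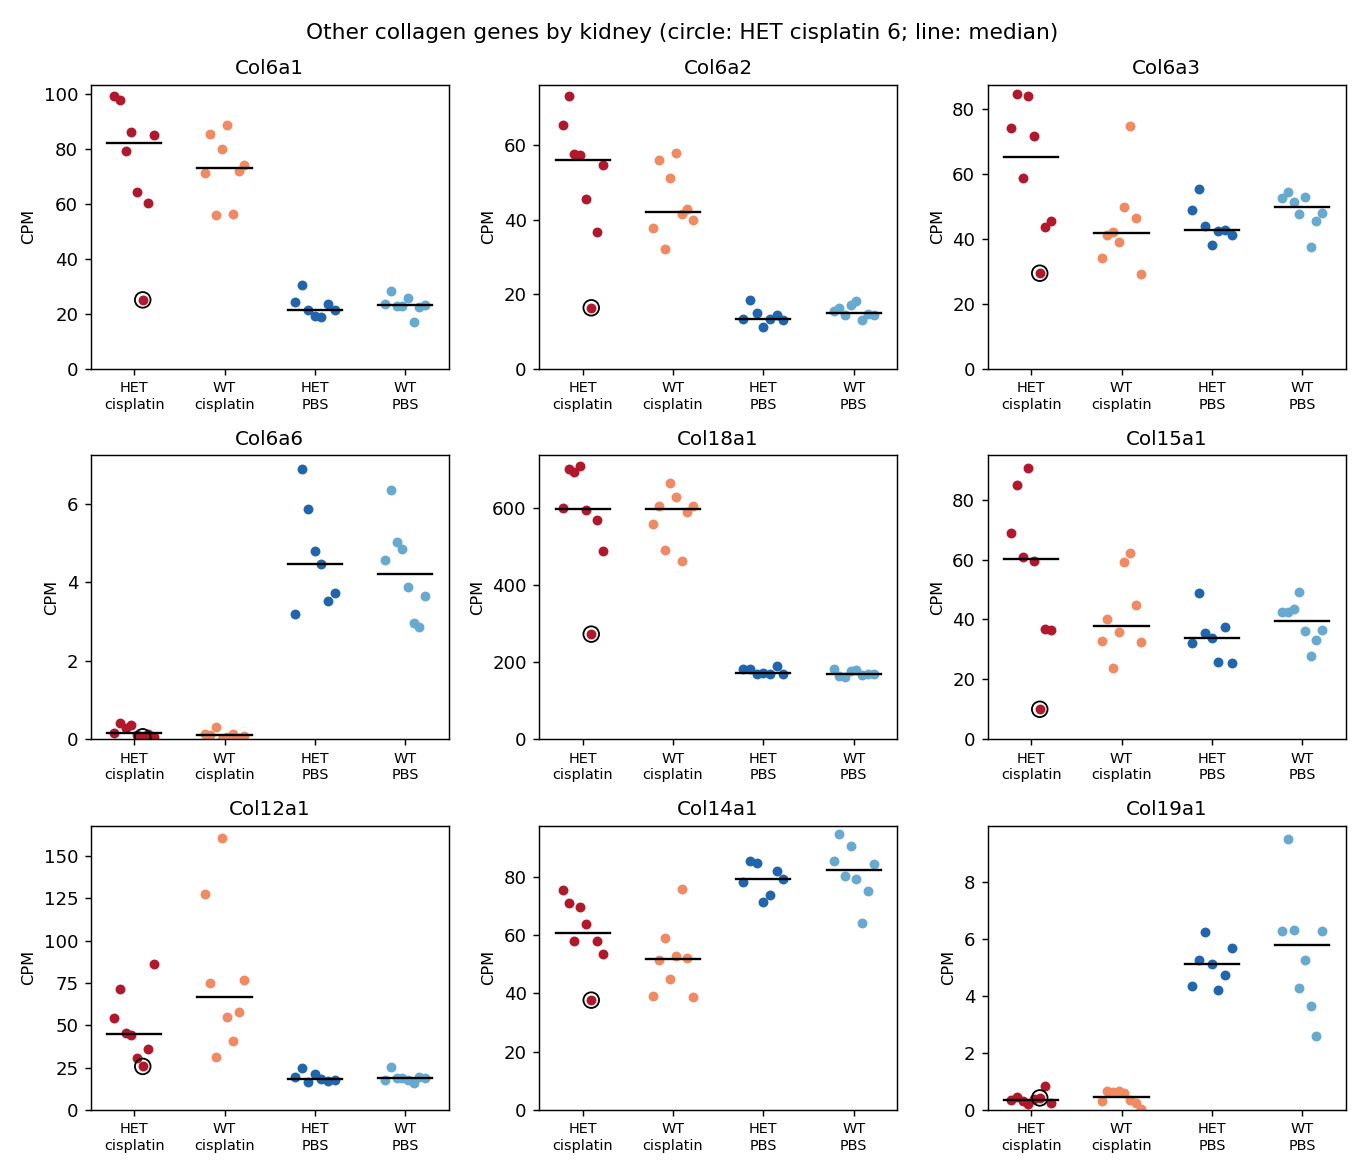
CPM of 9 collagen genes of other types in each kidney, with the group median as a line and HET cisplatin 6 circled. Col6a1, Col6a2, Col18a1 and Col12a1 are higher, Col6a6 and Col19a1 are near 0, and Col14a1 is lower with overlap after cisplatin, a direction that is not kept in HET when libraries are scaled by their totals. Col15a1 and Col6a3 spread widely within HET cisplatin.

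Per length, Col18a1 joined Col4a1 at the top of the order after cisplatin. In deposited TPM, Col18a1 had a median of 108 TPM in HET cisplatin and 106 TPM in WT cisplatin kidneys, against 22.1 TPM in HET PBS and 21.8 TPM in WT PBS kidneys. Col4a1 had a median of 107 TPM in HET cisplatin and 97.2 TPM in WT cisplatin kidneys, against 44.7 TPM in HET PBS and 45.1 TPM in WT PBS kidneys. The ranges of these top genes overlapped in cisplatin kidneys, so the medians do not set their order there. Their order was not compared kidney by kidney. Col4a2 came next, with a median of 59.1 TPM in HET cisplatin and 61.4 TPM in WT cisplatin kidneys, against 26.6 TPM in HET PBS and 27.2 TPM in WT PBS kidneys. In PBS kidneys Col4a1 was followed by Col4a3 with medians of 39.1 TPM in HET and 36.8 TPM in WT, Col4a4 with 30.1 TPM in HET and 30.7 TPM in WT, then Col4a2 and Col18a1. The group ranges of each neighbouring pair in that order overlapped, apart from Col4a2 and Col18a1 in WT PBS kidneys. Within single PBS kidneys the TPM ratio of Col4a3 to Col4a1 was at most 0.93 in HET and 0.96 in WT. That of Col4a3 to Col4a4 was at least 1.15 in HET and 1.13 in WT. Every PBS kidney thus held more Col4a1 than Col4a3, and more Col4a3 than Col4a4. As a share of the summed collagen TPM, Col18a1 made up 21.2% ± 2.5 in HET cisplatin kidneys (SD, n = 8), against 9.06% ± 0.363 in HET PBS kidneys (n = 7), and 21.6% ± 1.35 in WT cisplatin kidneys (n = 8), against 8.76% ± 0.367 in WT PBS kidneys (n = 8). Col4a3 made up 4.68% ± 1.40 in HET cisplatin kidneys, against 15.9% ± 1.40 in HET PBS kidneys, and 4.95% ± 0.526 in WT cisplatin kidneys, against 14.8% ± 0.839 in WT PBS kidneys. The summed collagen TPM were 469 ± 110 in HET cisplatin kidneys, against 244 ± 20.2 in HET PBS kidneys, and 461 ± 51.2 in WT cisplatin kidneys, against 248 ± 16.7 in WT PBS kidneys. TPM carry no TMM scaling. In TMM-scaled CPM the same sums were 3060 ± 571 in HET cisplatin kidneys, against 2540 ± 88.0 in HET PBS kidneys, and 3060 ± 343 in WT cisplatin kidneys, against 2500 ± 115 in WT PBS kidneys.

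**Figure D5:**
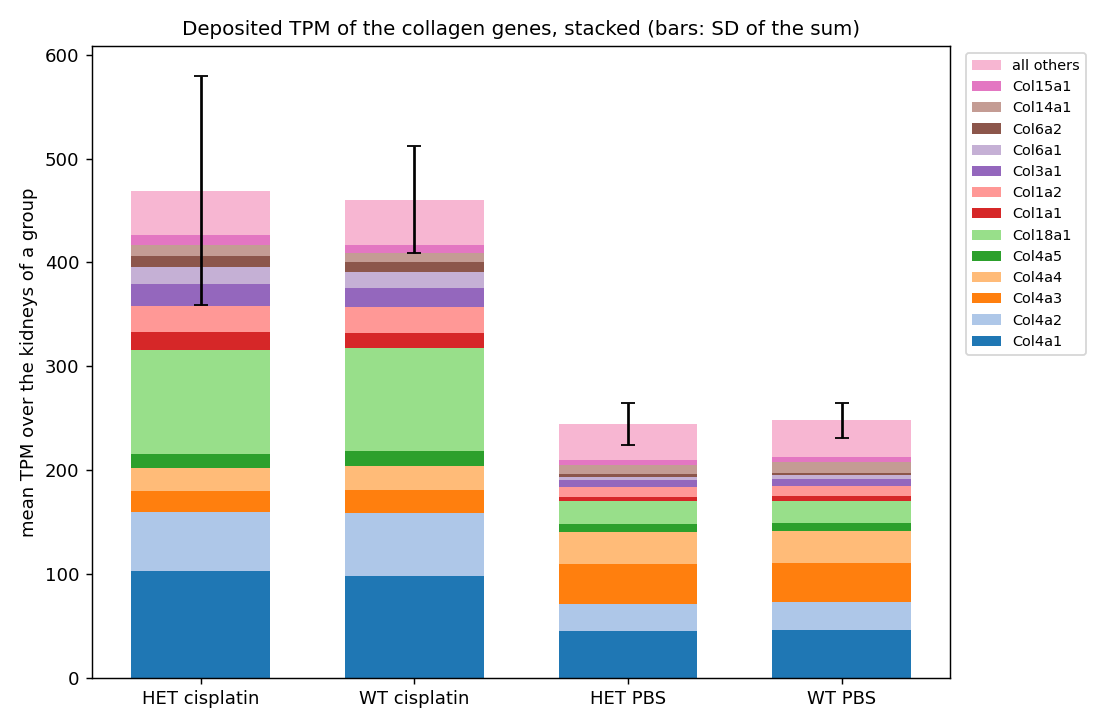
Mean deposited TPM of the collagen genes in each group, stacked by gene, with the SD of the summed TPM as bars. The stack reaches 469 and 461 TPM in HET and WT cisplatin kidneys, against 244 and 248 TPM in HET and WT PBS kidneys; the Col18a1 and Col4a1 bands are wider and the Col4a3 and Col4a4 bands narrower after cisplatin.

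Genes that process and cross-link collagen chains moved in both directions. Of 32 such genes, 30 were tested, and 16 rose and 9 fell in HET and 14 rose and 9 fell in WT kidneys, with median fold changes of 0.31 and 0.23. Over all tested genes 31% rose and 28% fell in HET and 33.6% rose and 29.6% fell in WT, with medians of 0.06 and 0.06, and the counts of the gene lists that follow stand beside these same shares. By library totals 21 genes of collagen processing rose and 2 fell in HET, and 21 rose and 5 fell in WT. On that scale 62.2% of all tested genes rose and 12.5% fell in HET, and 61.4% rose and 14.9% fell in WT. Lox, the copper enzyme that cross-links fibrils, had 8.45, 17.8 and 36.7 CPM in HET cisplatin kidneys, against 5.83, 9.08 and 9.56 CPM in HET PBS kidneys, and in WT 12.5, 33.7 and 60.0 CPM after cisplatin, against 3.76, 5.19 and 6.11 CPM after PBS. It rose by 1.29 (SE 0.28, adjusted p = 0.000214) in HET and 2.64 (SE 0.28, adjusted p = 1.4e-09) in WT kidneys. Bmp1, a protease that cuts the end of procollagen, rose by 1.67 (SE 0.14, adjusted p = 1.71e-11) in HET and 1.76 (SE 0.14, adjusted p = 1.44e-12) in WT kidneys. Colgalt1, which adds galactose to collagen chains, rose by 0.54 (SE 0.045, adjusted p = 9.09e-12) in HET and 0.55 (SE 0.043, adjusted p = 2.11e-12) in WT kidneys. Crtap, part of the prolyl hydroxylation complex, fell, with fold changes of −0.63 (SE 0.059, adjusted p = 1.51e-10) in HET and −0.77 (SE 0.058, adjusted p = 7.08e-13) in WT kidneys.

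Among 24 tested genes of collagen breakdown and its inhibitors, 12 rose and 3 fell in HET, and 13 rose and 6 fell in WT kidneys, with median fold changes of 0.54 and 0.73. Timp1, an inhibitor of matrix proteases, had 0.352, 5.25 and 7.74 CPM in HET cisplatin kidneys, against 0.158, 0.393 and 0.694 CPM in HET PBS kidneys, and in WT 2.74, 4.73 and 6.60 CPM after cisplatin, against 0.157, 0.233 and 0.421 CPM after PBS. Timp1 rose by 3.47 (SE 0.38, adjusted p = 2.64e-09) in HET and 4.26 (SE 0.39, adjusted p = 4.05e-11) in WT kidneys. Timp3, an inhibitor bound to matrix, went the other way, with 930, 1180 and 1380 CPM in HET cisplatin kidneys, against 2160, 2710 and 2980 CPM in HET PBS kidneys and, in WT, 848, 1100 and 1400 CPM after cisplatin, against 2350, 2550 and 3350 CPM after PBS. Timp3 fell, with fold changes of −1.21 (SE 0.10, adjusted p = 1.73e-11) in HET and −1.28 (SE 0.10, adjusted p = 2.27e-12) in WT kidneys. Mmp14, a protease on the cell surface that cleaves fibrils, rose by 2.21 (SE 0.19, adjusted p = 1.62e-11) in HET and 2.38 (SE 0.18, adjusted p = 8.65e-13) in WT kidneys. The collagenase Mmp13 fell, with fold changes of −3.52 (SE 0.42, adjusted p = 1.47e-08) in HET and −4.36 (SE 0.45, adjusted p = 5.22e-10) in WT kidneys, from at most 3.43 CPM in any PBS kidney. The 12 tested receptors for collagen and other matrix had median fold changes of 0.47 in HET and 0.59 in WT. Of these 12 receptors, 9 rose and none fell in HET, and 9 rose and 1 fell in WT kidneys. Among them Itga3, an integrin chain of tubules and podocytes, rose by 1.82 (SE 0.19, adjusted p = 2.02e-09) in HET and 1.88 (SE 0.19, adjusted p = 3.03e-10) in WT kidneys, and Cd44, a receptor for hyaluronan and matrix, by 2.88 (SE 0.31, adjusted p = 2.08e-09) in HET and 2.79 (SE 0.29, adjusted p = 1e-09) in WT kidneys. Cspg4, a proteoglycan of pericytes, rose by 0.92 (SE 0.081, adjusted p = 3.06e-11) in HET and 0.73 (SE 0.077, adjusted p = 1.33e-09) in WT kidneys, and Adgrg1, an adhesion receptor for type III collagen, by 0.56 (SE 0.071, adjusted p = 5.52e-08) in HET and 0.70 (SE 0.068, adjusted p = 2.43e-10) in WT kidneys.

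Of the 23 genes for other basement membrane components, 13 rose and 4 fell in HET, and 13 rose and 6 fell in WT kidneys, with medians of 0.38 and 0.34. Agrn, a heparan sulphate proteoglycan, rose by 1.32 (SE 0.098, adjusted p = 7.27e-13) in HET and 1.33 (SE 0.093, adjusted p = 1.8e-13) in WT kidneys. Lama3, a laminin chain, fell, with fold changes of −1.25 (SE 0.099, adjusted p = 3.38e-12) in HET and −1.04 (SE 0.096, adjusted p = 7.3e-11) in WT kidneys, and so did Fras1, a protein of epithelial basement membranes, with −2.01 (SE 0.16, adjusted p = 3.69e-12) in HET and −2.18 (SE 0.16, adjusted p = 3.27e-13) in WT kidneys. Of the 22 tested genes that bind or organise fibrils, 9 rose and 3 fell in HET, and 10 rose and 4 fell in WT kidneys, with medians of 0.47 and 0.38. Dcn, a proteoglycan on type I fibrils, rose by 0.98 (SE 0.13, adjusted p = 1.76e-07) in HET and 1.07 (SE 0.13, adjusted p = 1.44e-08) in WT kidneys, whereas its relatives Fmod and Prelp fell, with fold changes of −1.73 (SE 0.21, adjusted p = 2.9e-08) in HET and −1.72 (SE 0.21, adjusted p = 1.71e-08) in WT kidneys for Fmod and −0.73 (SE 0.11, adjusted p = 8.17e-07) in HET and −0.81 (SE 0.10, adjusted p = 5.21e-08) in WT kidneys for Prelp. Fbln5, which organises elastic fibres, fell, with fold changes of −0.74 (SE 0.11, adjusted p = 6.8e-07) in HET and −1.04 (SE 0.11, adjusted p = 5.74e-10) in WT kidneys. Of the 17 tested genes of transforming growth factor beta signalling, 11 rose and 3 fell in each genotype, with medians of 0.32 in HET and 0.42 in WT. The receptor Tgfbr2 rose by 0.87 (SE 0.10, adjusted p = 1.26e-08) in HET and 0.71 (SE 0.098, adjusted p = 1.94e-07) in WT kidneys, its partner Tgfbr1 by 0.22 (SE 0.06, adjusted p = 0.00189) in HET and 0.41 (SE 0.058, adjusted p = 2.95e-07) in WT kidneys, the signal protein Smad3 by 1.10 (SE 0.14, adjusted p = 3.39e-08) in HET and 1.03 (SE 0.13, adjusted p = 3.96e-08) in WT kidneys and the target Tgfbi by 1.02 (SE 0.15, adjusted p = 1.04e-06) in HET and 1.24 (SE 0.15, adjusted p = 1.22e-08) in WT kidneys.

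Markers of cell types moved along with these genes, and their part in the collagen results was not tested. Fewer cells of a type and less RNA per cell cannot be told apart in whole kidneys. Of 7 fibroblast markers 6 rose in HET and 4 in WT and none fell, and their summed level was 502 to 849 CPM in HET cisplatin kidneys, against 418 to 544 CPM in HET PBS kidneys, and 617.8 to 867 CPM in WT cisplatin kidneys, against 398 to 506 CPM in WT PBS kidneys. Of 6 markers of myofibroblasts and smooth muscle, 1 rose in HET, and 2 rose and 1 fell in WT kidneys, with sums of 104 to 169 CPM in HET cisplatin kidneys, against 127 to 160 CPM in HET PBS kidneys, and 119 to 168 CPM in WT cisplatin kidneys, against 120 to 145 CPM in WT PBS kidneys. Among these Acta2, the actin of myofibroblasts, had a fold change of 0.24 (SE 0.13, adjusted p = 0.113) in HET and 0.30 (SE 0.13, adjusted p = 0.0367) in WT kidneys. Of 8 podocyte markers 4 rose and 2 fell in HET and 3 rose and 2 fell in WT, and their sum was 400 to 465 CPM in HET cisplatin kidneys, against 398 to 514 CPM in HET PBS kidneys, and 404 to 498 CPM in WT cisplatin kidneys, against 414 to 515 CPM in WT PBS kidneys. Podocytes make the chains of Col4a3 and Col4a4, and the slit-diaphragm gene Nphs1 had fold changes of −0.01 (SE 0.09, adjusted p = 0.928) in HET and 0.04 (SE 0.087, adjusted p = 0.676) in WT kidneys. Of 4 mesangial markers, 1 rose and 2 fell in HET, and 1 rose and 3 fell in WT, with sums of 51.8 to 75.8 CPM in HET cisplatin kidneys, against 69.3 to 96.4 CPM in HET PBS kidneys, and 49.8 to 77.8 CPM in WT cisplatin kidneys, against 67.9 to 95.3 CPM in WT PBS kidneys. All 8 endothelial markers fell in both genotypes, although by library totals 2 rose and 2 fell in HET and 2 rose and 4 fell in WT. Their sums were 406 to 467 CPM in HET cisplatin kidneys, against 574 to 617 CPM in HET PBS kidneys, and 389 to 448 CPM in WT cisplatin kidneys, against 565 to 643 CPM in WT PBS kidneys. The other lists also moved with the scaling. By library totals 7 fibroblast markers rose in HET and 6 in WT, and 4 and 5 of myofibroblasts and smooth muscle, with 0 falling. Of the podocyte markers 6 rose and 0 fell in HET, and 6 rose and 1 fell in WT. Of the mesangial markers 1 rose and 1 fell in HET, and 1 rose and 2 fell in WT. On that scale 62.2% of all tested genes rose and 12.5% fell in HET, and 61.4% rose and 14.9% fell in WT.

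All 5 proximal tubule markers fell and all 5 markers of injured tubule rose in both genotypes. The proximal tubule sum was 794 to 4860 CPM in HET cisplatin kidneys, against 12800 to 15100 CPM in HET PBS kidneys, and 824 to 5460 CPM in WT cisplatin kidneys, against 13300 to 15700 CPM in WT PBS kidneys. The injured tubule sum was 152 to 1010 CPM in HET cisplatin kidneys, against 20.1 to 40.2 CPM in HET PBS kidneys, and 596 to 959 CPM in WT cisplatin kidneys, against 16.0 to 23.5 CPM in WT PBS kidneys. Of 5 macrophage markers 3 rose and 1 fell in HET and 4 rose and 1 fell in WT, with sums of 30.04 to 97.2 CPM in HET cisplatin kidneys, against 66.95 to 79.6 CPM in HET PBS kidneys, and 60.9 to 109 CPM in WT cisplatin kidneys, against 65.6 to 77.1 CPM in WT PBS kidneys. For tissue that can cling to a kidney, 3 of 4 fat markers and 3 of 4 urothelium markers rose in HET and 2 of 4 of each in WT. The fat sum was 31.8 to 215 CPM in HET cisplatin kidneys, against 37.6 to 104 CPM in HET PBS kidneys, and 39.02 to 112 CPM in WT cisplatin kidneys, against 28.3 to 87.7 CPM in WT PBS kidneys. The urothelium sum was 6.15 to 14.6 CPM in HET cisplatin kidneys, against 5.98 to 8.97 CPM in HET PBS kidneys, and 6.84 to 21.4 CPM in WT cisplatin kidneys, against 5.36 to 9.53 CPM in WT PBS kidneys. Of the skeletal muscle and cartilage markers Acta1, Ckm, Acan and Matn1 did not pass the filter on low counts, Mylpf passed the threshold in neither genotype, and Sox9, also counted among the injured tubule markers, rose in both. The adrenal marker Star rose in HET kidneys, where the library labelled HET cisplatin 4 held 205 CPM and the next highest kidney of any group 2.47 CPM.

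The study asks whether a partial loss of Nbl1 alters the kidney's response to cisplatin, and for the collagens no difference by genotype passed the threshold. By edgeR 0 of 39 members were called in the difference between the HET and the WT response (4 at an unadjusted p under 0.05), 0 in HET against WT under cisplatin (2 unadjusted) and 0 in HET against WT under PBS (1 unadjusted). Over all tested genes, 0%, 0.00519% and 0% were called in these comparisons. At an unadjusted p under 0.05 by edgeR, 1079, 1066 and 968 of all 19268 tested genes passed in the same order. DESeq2 and limma voom also called 0 collagens, with 4 and 9 at an unadjusted p under 0.05 for the response, 4 and 9 under cisplatin, and 2 and 2 under PBS. Over all tested genes DESeq2 called 0 for the response, 1 under cisplatin and 5 under PBS, and voom called 0, 2 and 0. Unadjusted counts over all genes are not given here for DESeq2 and voom, so theirs have no background beside them. Without the 5 libraries that go against their labels, edgeR also called 0 collagens in these comparisons. Nbl1 itself, at −1.49 (SE 0.42, adjusted p = 0.874) in HET against WT under cisplatin and −1.23 (SE 0.46, adjusted p = 0.778) under PBS, did not pass the threshold either. The lack of calls therefore does not show that the collagens respond alike in the 2 genotypes. The smallest unadjusted p of the response was that of Col13a1, whose difference was −1.06 (95% interval −1.74 to −0.39, adjusted p = 0.725). Under PBS, Col13a1 had 1.60, 2.13 and 3.78 CPM in HET kidneys, against 0.944, 1.23 and 2.30 CPM in WT kidneys, a fold change of 0.78 (95% interval 0.27 to 1.28, adjusted p = 0.738), and under cisplatin the 2 genotypes overlapped. For Col4a3 the difference between the responses was −0.23 (95% interval −0.44 to −0.01, adjusted p = 0.882). Under cisplatin the fold change of HET over WT was −0.67 (95% interval −1.17 to −0.16, adjusted p = 0.874) for Col12a1 and 0.46 (95% interval 0.11 to 0.81, adjusted p = 0.874) for Col6a3. For Col4a1 the response differed by −0.0015 (95% interval −0.28 to 0.27, adjusted p = 0.999).

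The animal numbers fall into the 600 range and others, with 8 HET cisplatin, 6 WT cisplatin, 4 HET PBS and 4 WT PBS animals inside it. The sources used here do not say what the numbers mark. Within that range, 16 collagens rose and 9 fell in HET, and 15 rose and 10 fell in WT. Without the 5 libraries that go against their labels, 14 rose and 11 fell in HET, and 17 rose and 10 fell in WT. Without the library with adrenal transcripts, 15 rose and 11 fell in HET. The shares of all tested genes that rose or fell in these refits are not given here. The counts therefore have no background beside them and show only how many collagen calls each refit gave.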

How the data were processed

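Whole-kidney RNA from 31 male mice was sequenced from libraries made with the KAPA mRNA HyperPrep kit, per the labels' protocols. Reads were trimmed with fastp, aligned with STAR to GRCm38/mm10 and counted with featureCounts, per the submitters' processing notes, and no source used here states their versions or the strand setting. The authors deposited expected counts, TPM and FPKM per gene, per the file headers. Of the deposited expected counts 12.52% of values were not whole, and all were rounded to whole numbers. The deposited FPKM was a constant multiple of TPM within 0.164% (at TPM over 5) and was not used further, and the deposited TPM served for levels between genes.

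Counts were filtered with filterByExpr, scaled by TMM and fitted with edgeR 4.0.16 (R 4.3.3) in 1 quasi-likelihood model over all 4 groups, with Benjamini-Hochberg adjustment over 19268 genes at a threshold of 0.05. The same step was tested on simulated data. Fold changes use a prior count of 0.125, and CPM are TMM-scaled. The members and lists were chosen with earlier results of these data known. Genes named with all values were the members called in either cisplatin comparison with a group mean of at least 1 CPM, and all type I, III and IV chains; other members are given by ranges and counts, and each companion list is shown by up to 4 genes with the smallest p over both cisplatin comparisons, of which some are not reported here. Alternatives were DESeq2 1.42.0, limma 3.58.1 (voom, and log2 TPM with pseudocounts of 1 and 0.1), other scalings and filters, the animal number range, and leaving out libraries. The numbers of replicates follow accession order and only name samples. Positions come from GENCODE M21 and promoter windows from RefSeq. Python 3.11.15, pandas 2.3.3 and matplotlib 3.10.9 were used for the rest.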

Additional observations from a re-analysis of the deposited data

Results flagged for a closer look

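Of 112 combinations of a named collagen and a group, 10 had 1 kidney far from the rest of its group. Far means that its gap to the nearest kidney took up a large share of the range of the group. The cut-off flags about 1 in 20, or 5.6, only for independent and normally distributed values. Col4a1 and Col4a2 were flagged in the same kidneys, so 10 against 5.6 is not a test. In HET cisplatin 6, Col4a1 was 391 CPM, against 590 to 729 CPM in the other HET cisplatin kidneys, and Col4a2 was 299 CPM, against 393 to 462 CPM. In WT cisplatin 4, Col4a1 was 816 CPM and the other 7 held 560 to 613 CPM, and Col4a2 was 602.3 CPM, against 348 to 455 CPM. In HET cisplatin 8, Col4a3 was 147 CPM and the other 7 kidneys held 193 to 234 CPM. In the library labelled HET cisplatin 4, Col5a3 was 6.05 CPM, against 1.55 to 3.02 CPM. In HET cisplatin 7, Col19a1 was 0.833 CPM, against 0.194 to 0.460 CPM. In WT cisplatin 6, Col6a3 was 74.98 CPM, against 29.1 to 49.9 CPM, and in WT cisplatin 3, Col6a6 was 0.313 CPM, against 0 to 0.132 CPM. In WT PBS 2, Col12a1 was 25.1 CPM and the other 7 kidneys of the group held 16.1 to 19.3 CPM.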

How the results depend on the processing

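Of the recomputed gene results, 2796 kept their direction and side of the threshold, 46 lost and 5 gained the call with their direction kept, and 25 changed sign. Some of those 25 lost the call as well, as Col14a1 and Col5a2 did in HET under library totals. All 314 recomputed counts of calls stayed within 1.5 times the count given. The counts for the genotype comparisons and the difference between the responses were 0 against 0 throughout, which was scored as within that bound. Leaving out 1 library at a time gave 15 to 20 collagens higher and 10 to 11 lower in HET, and 16 to 17 higher and 9 to 10 lower in WT. Of these refits, only that without HET cisplatin 6 has its shares of all tested genes given here. Under library totals the fold change was 0.0318 for Col14a1, 0.0231 for Col5a2 and 0.0927 for Col5a3 in HET, and 0.259 for Col6a3 and 0.258 for Col8a1 in WT. On log2(TPM + 1) these were 0.0676, 0.085, 0.0552, 0.251 and 0.243, and on log2(TPM + 0.1) 0.071, 0.107, 0.134, 0.291 and 0.351. Library totals also moved the ratio of summed collagens, cisplatin over PBS, to 1.61 in HET and 1.61 in WT, of fibrillar chains to 1.67 in WT, of type IV chains to 1.21 in HET and 1.28 in WT, and of the other chains to 2.89 in HET and 2.79 in WT; the scaling itself sets these shifts. Col8a1 in WT was 0.0133 with voom and 0.0344 without the 5 libraries against their labels, and Col6a3 in WT was 0.028 within animals of the 600 number range. Col15a1 in WT was −0.0148 without HET cisplatin 6 and WT cisplatin 6. The difference of the responses of Col5a3 was −0.199 without the 5 libraries and −0.118 without the library with adrenal transcripts. With 1 library left out, Col15a1 in WT ran from −0.0192 to 0.173, Col8a1 in WT from −0.23 to 0.035 and the Col5a3 difference from −0.118 to 0.326. Within animals of the 600 number range, which leaves fewer kidneys, Col8a1 in WT was −0.561 and gained a call, and the calls of Col13a1 (0.697), Col14a1 (−0.334) and Col15a1 (0.868) in HET and of Col11a2 (0.774) and Col5a3 (−0.407) in WT were lost at these fold changes. Col8a1 in HET lost its call by library totals and, at −0.178 and −0.245, on log2 TPM with pseudocounts of 1 and 0.1, and Col7a1 in HET lost its call on log2 TPM. The cause of these changes was not tested. Leaving out the 2 libraries nearest to PBS, and the library with adrenal transcripts, were chosen after seeing the data. The promoter window without the 50 bases after the start held a GC box in 32.9% of all genes and 60.0% of the collagens. The difference between the responses has no value when only the groups of 1 comparison are fitted. No paired analysis was possible because the labels give no replicate numbers. Depth limits chains below about 1 CPM, where intervals are wide.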

Other observations

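Some partner chains had other proportions after cisplatin, and others had ratios that overlapped with those of PBS kidneys. Col1a1 to Col1a2, partners in type I collagen, had a median TPM ratio of 0.599 in HET cisplatin kidneys, against 0.307 in HET PBS kidneys, and 0.586 in WT cisplatin kidneys, against 0.374 in WT PBS kidneys. The ranges overlapped in each genotype. Col6a3 to Col6a1, partners in type VI collagen, had a median TPM ratio of 0.486 in HET cisplatin kidneys, against 1.11 in HET PBS kidneys, and 0.319 in WT cisplatin kidneys, against 1.21 in WT PBS kidneys, with no overlap in either genotype. Col6a1 to Col6a2 stood at 1.49 in HET cisplatin kidneys, against 1.64 in HET PBS kidneys, and at 1.63 in WT cisplatin kidneys, against 1.53 in WT PBS kidneys, with overlap in both. Col4a5 to Col4a3, partners in the glomerular network, had a median ratio of 0.664 in HET cisplatin kidneys, against 0.202 in HET PBS kidneys, and 0.646 in WT cisplatin kidneys, against 0.219 in WT PBS kidneys, with no overlap. These ratios were not tested beyond the ranges.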
